A study of Homo sapiens with 24 samples.

Results

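The mitosis and spindle genes are 32 genes whose products bring cells into mitosis, build and check the spindle, separate the chromosomes and divide the cell. They were given as a list of gene symbols, and each was measured by the array's transcript cluster, a set of probes that reports on 1 locus, that carries its symbol and no other. All 32 were measured, among 14232 genes with such a cluster in the whole series. RNA came from MUTZ-5 and MHH-CALL4, a pair of human B cell precursor acute lymphoblastic leukaemia lines, exposed for 8 h to 500 nM JQ1 or to DMSO, the solvent in which JQ1 is given. The 4 groups are MUTZ-5 with JQ1, MUTZ-5 with DMSO, MHH-CALL4 with JQ1 and MHH-CALL4 with DMSO, each with 3 Affymetrix exon arrays, and the labels name no added gene or deletion in any group. JQ1 blocks the bromodomains of the BET proteins, which bind acetylated chromatin and help RNA polymerase II to elongate. Each line derives from a single leukaemia, and nothing in the labels tells if a group's 3 samples grew as separate cultures. The p-values therefore weigh differences against a spread that could be purely technical.

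Genes of this kind are transcribed late in the cell cycle. In growing cells their transcripts are low in G1 and build up through S phase to a maximum in G2 and mitosis, under the DREAM and MuvB complexes, B-Myb and FOXM1, which act through the cell cycle gene homology region and CCAAT boxes of the promoters. The RNA of a mixed culture therefore reads both how active a gene is and how many cells are in G2 and mitosis, and these arrays cannot tell fewer such cells from less RNA per cell.

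Values are log2 values on which a difference of 1 is a doubling, and a gene was called when limma's Benjamini-Hochberg adjusted p over all 14232 genes was under 0.05. "Higher" and "rose", or "lower" and "fell", are used of called genes. MYC, which BET inhibition is known to lower, fell by 1.32 log2 in MUTZ-5 and by 2.05 in MHH-CALL4 (limma adjusted p = 5.33e-08 and 8.56e-10), and HEXIM1, a gene known to rise under BET inhibitors, rose by 1.51 and 1.76 (limma adjusted p = 6.30e-08 and 1.07e-08). The medians of the 12 arrays lay between 8.46 and 8.57. Of 12 precursor B cell markers 11 were measured, with a list mean between 11.65 and 12.07 on every array, and 5 of them fell under JQ1 in each line (CD22, CD24, CD79A and VPREB1 in both, CD79B in MUTZ-5 and EBF1 in MHH-CALL4), while 2 rose in MUTZ-5. The list means of 8 T and NK cell, 7 myeloid, 4 erythroid and 6 stromal markers lay between 6.69 and 7.58 on every array, with ZAP70, NKG7 and PDGFRB lower under JQ1 in both lines and LYZ lower in MHH-CALL4. Single markers departed from these list means. In MHH-CALL4 with DMSO the highest gene mean was 10.47 among T and NK cell markers and 9.855 among stromal markers. The lowest precursor B cell gene mean in MUTZ-5 with DMSO was 7.46. The part of other cells in the results was not tested. The axis that carried 43.9% of the variance within groups ran from MUTZ-5 DMSO array 3 at 1 end to MHH-CALL4 JQ1 array 3 at the other, and results that rest on these arrays are given without them.

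The promoters show the elements by which these genes are known. RefSeq promoters (GRCh38.p14, 250 bases before to 50 after the start) were at hand for 25 of the 32 members, not for AURKA, BUB3, UBE2C, FOXM1, BIRC5, TTK and TPX2. Both strands were searched for CCAAT, the box bound by NF-Y, and for TTTGAA and TTCGAA, forms of the core of the cell cycle gene homology region. They were also searched for TTGGCGC and TTCGCGC, which are E2F sites, and for CACGTG, the E-box that MYC can bind. CCAAT stood in 20 of 25 member promoters (80.0%), against 36.54% of the 11386 tested genes with a promoter. TTTGAA or TTCGAA stood in 16 (64.0%), against 13.07%. Both kinds of element stood together in 15 (60.0%), against 5.41%, and CCAAT occurred more than once in 13 (52.0%), against 12.59%. An E2F site was found in 5 (20.0%), against 6.903%, and the E-box in 5 (20.0%), against 8.994%. The 4 sequences below are the 250 bases before the start of 4 genes. Among members with a promoter, PRC1 had the lowest and PTTG1 the highest mean JQ1 effect over both lines, and they are shown with the genes of cyclin B1 (CCNB1) and polo-like kinase 1 (PLK1), which serve as the textbook examples. They are written 5′ to 3′ on the gene's strand, with the CCAAT boxes, both cores of the homology region and both E2F sites in capitals, on whichever strand they lie.
PRC1, chr15:90994536-90994785, minus strand: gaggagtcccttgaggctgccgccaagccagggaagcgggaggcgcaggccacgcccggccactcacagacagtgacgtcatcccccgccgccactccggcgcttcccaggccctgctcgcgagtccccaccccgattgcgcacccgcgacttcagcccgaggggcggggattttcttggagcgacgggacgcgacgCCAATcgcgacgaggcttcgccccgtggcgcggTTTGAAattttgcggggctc
PTTG1, chr5:160421605-160421854, plus strand: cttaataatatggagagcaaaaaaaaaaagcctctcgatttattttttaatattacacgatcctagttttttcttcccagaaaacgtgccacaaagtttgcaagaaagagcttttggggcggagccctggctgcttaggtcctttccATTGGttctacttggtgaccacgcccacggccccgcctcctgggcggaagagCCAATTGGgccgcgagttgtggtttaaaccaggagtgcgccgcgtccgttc
CCNB1, chr5:69166900-69167149, plus strand: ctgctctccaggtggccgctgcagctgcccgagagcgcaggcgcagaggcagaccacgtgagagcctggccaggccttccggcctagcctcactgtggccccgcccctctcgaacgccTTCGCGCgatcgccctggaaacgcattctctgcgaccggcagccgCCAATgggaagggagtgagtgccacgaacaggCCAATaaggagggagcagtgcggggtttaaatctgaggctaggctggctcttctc
PLK1, chr16:23678639-23678888, plus strand: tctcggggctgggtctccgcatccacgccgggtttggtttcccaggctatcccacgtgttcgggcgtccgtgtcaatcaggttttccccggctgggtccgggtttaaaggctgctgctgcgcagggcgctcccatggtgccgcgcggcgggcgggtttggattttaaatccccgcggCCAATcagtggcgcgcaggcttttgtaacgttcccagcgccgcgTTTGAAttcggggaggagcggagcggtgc
PRC1 and PLK1 have the same arrangement, a CCAAT box (first base at -53 and -73, where -1 is the last base before the start) followed by TTTGAA (at -20 and -29). PTTG1 has CCAAT at -51, overlapped by its reverse at -48, and a further reverse CCAAT at -103, but neither TTTGAA nor TTCGAA. The CCNB1 promoter has CCAAT at -87 and -55 and the E2F letters TTCGCGC at -132, but also neither TTTGAA nor TTCGAA. No other form of the core was searched, so PTTG1 and CCNB1 are not shown to lack the homology region. The letters tttaaa, which both hold and PLK1 holds too, were not searched. The E-box CACGTG, left in lower case above, starts at -196 in CCNB1 and at -198 in PLK1. Among members with a promoter, CCAAT was found in 7 of 9 that rose in either line, in the only one that fell (PRC1) and in 12 of 15 called in neither, and TTTGAA or TTCGAA in 5 of 9, in PRC1 and in 10 of 15. These letters are a description of the promoters and say nothing about which factors bind them here.

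The question of the JQ1 comparison is what 8 h of BET inhibition does to these transcripts. In both lines the members moved in both directions, and no member changed as much as 2-fold. In MUTZ-5, 7 of 32 rose (PTTG1, CENPA, NEK2, CDC25C, ANLN, BUB1 and DLGAP5), 4 fell (FOXM1, PRC1, UBE2C and AURKA) and 21 did not pass. Among all genes 9.06% rose and 13.0% fell in this line, 22.0% in all, against 34.4% of members. An unadjusted p under 0.05 was reached by 15 members, and by 31.0% of all genes. The JQ1 arrays lay wholly above the DMSO arrays in 9 members (13.8% of all genes) and wholly below in 5 (18.7%), without overlap in either direction for 32.6% of all genes. In MHH-CALL4, 5 rose (PTTG1, CENPA, NEK2, AURKB and CDC20), 3 fell (FOXM1, PRC1 and UBE2C) and 24 did not pass. There 11.0% of all genes rose and 17.5% fell, 28.5% in all, against 25.0% of members. An unadjusted p under 0.05 was reached by 14 members, and by 38.8% of all genes. The JQ1 arrays lay wholly above the DMSO arrays in 8 members (19.7% of all genes) and wholly below in 5 (24.1%), and 43.7% of all genes had no overlap. With each array centred on its median, or with cyclic loess, the MHH-CALL4 counts were 9 higher and 3 lower, while the share of all genes called higher was 15.2% with centring and 13.9% with cyclic loess. The members' median difference was 0.04 log2 in MUTZ-5 (0.01 over all genes) and 0.05 in MHH-CALL4 (0.01 over all genes). With dim genes left out (mean below that of the median gene), 7116 genes were kept, and CDC25C was the member removed. Of the genes kept, 18.5% rose and 24.3% fell in MUTZ-5 (42.8% in all), where 6 members rose and 5 fell. In MHH-CALL4 15.2% rose and 31.9% fell (47.2% in all), where 7 members rose and 4 fell. Against these brighter genes the members' called share was lower in both lines.

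**Figure D1:**
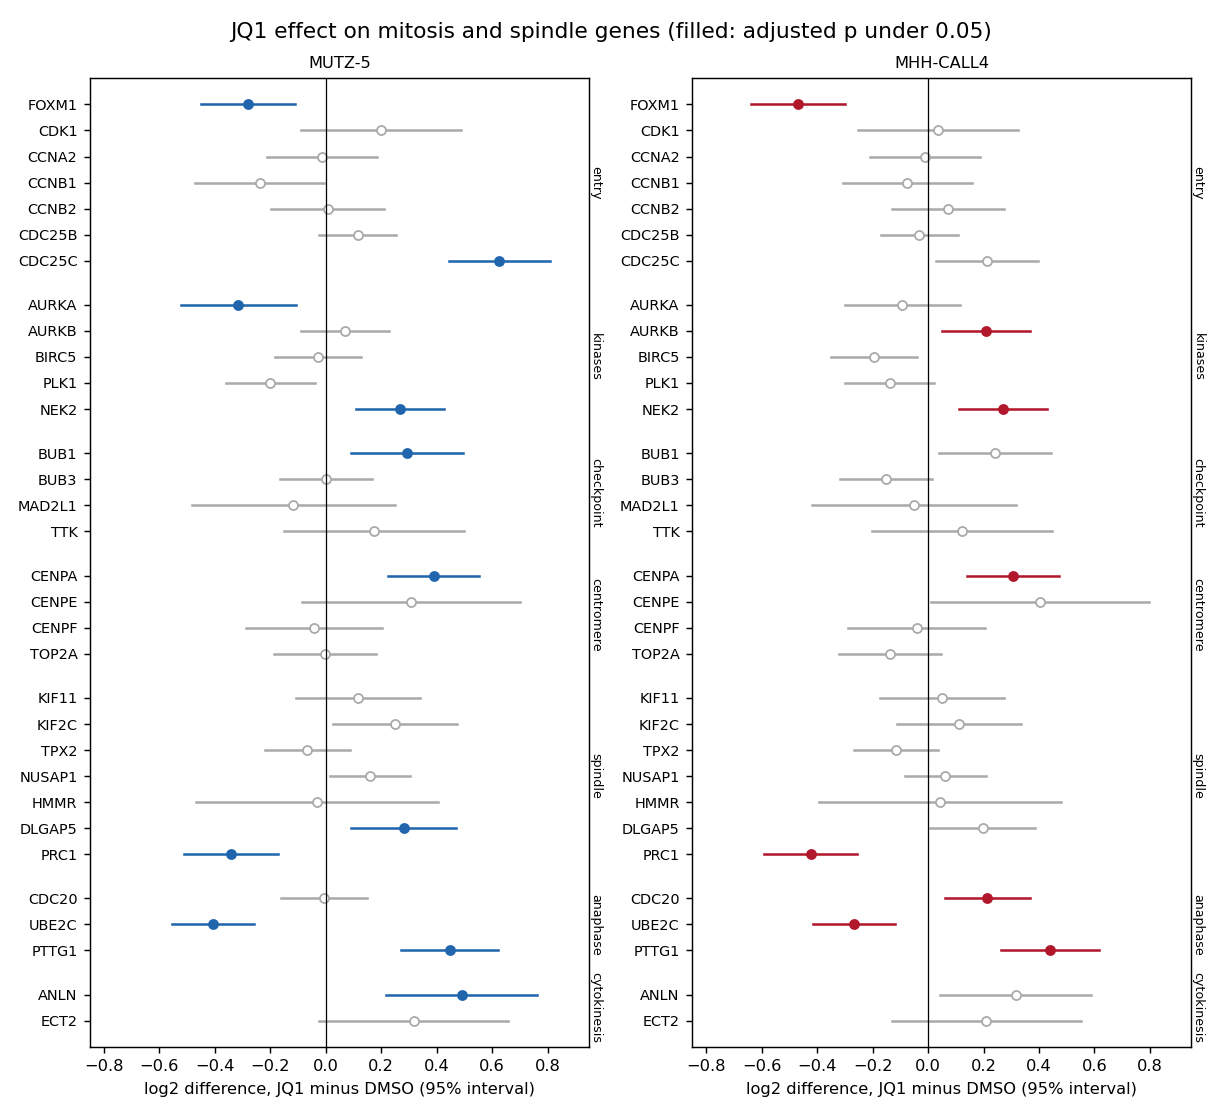
Log2 difference of each of the 32 members, JQ1 minus DMSO, in MUTZ-5 (left) and MHH-CALL4 (right), grouped by role, with 95% intervals from limma (3 arrays per group). Filled points passed an adjusted p of 0.05; FOXM1, PRC1 and UBE2C lie below 0 and PTTG1, CENPA and NEK2 above 0 in both panels.

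Entry into mitosis is driven by cyclin-dependent kinase 1 (CDK1) with cyclins A and B, switched on by the CDC25 phosphatases, and FOXM1 is the forkhead transcription factor that drives many of these genes. FOXM1 read 10.67, 10.55 and 10.61 on the 3 MUTZ-5 JQ1 arrays, against 10.89, 10.77 and 11.01 on the MUTZ-5 DMSO arrays. It read 9.80, 9.75 and 9.81 in MHH-CALL4 with JQ1, against 10.17, 10.35 and 10.25 with DMSO. In each line all 3 JQ1 values lay below all 3 DMSO values. FOXM1 fell by 0.28 ± 0.08 log2 (SE) in MUTZ-5 and by 0.47 ± 0.08 in MHH-CALL4 (limma adjusted p = 0.0201 and 0.000551). The MUTZ-5 call was lost without MUTZ-5 DMSO 1, DMSO 3, JQ1 2 or JQ1 3, each left out alone (limma adjusted p = 0.0508 to 0.0926, differences of -0.28 to -0.22), and the MHH-CALL4 call was kept without any single array.

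CDC25C, a phosphatase that activates CDK1, had the largest rise among the members. It read 8.99, 8.98 and 8.79 in MUTZ-5 with JQ1, against 8.28, 8.16 and 8.43 with DMSO. In MHH-CALL4 it read 8.48, 8.47 and 8.41 with JQ1, against 8.31, 8.21 and 8.20 with DMSO. The JQ1 arrays were above the DMSO arrays in both lines with these core probe sets. There it rose by 0.63 ± 0.08 log2, a 1.54-fold change (limma adjusted p = 0.000128), whereas the difference of 0.21 ± 0.08 in MHH-CALL4 had an adjusted p of 0.0791 in limma and passed only without MUTZ-5 DMSO 3 among the single arrays left out (0.0456). With the extended probe sets the difference was 0.50 in MUTZ-5 (limma adjusted p = 0.00188) and 0.10 in MHH-CALL4 (limma adjusted p = 0.512). In MHH-CALL4 the extended values were 7.82, 7.81 and 7.62 with JQ1, against 7.82, 7.55 and 7.59 with DMSO, and overlapped.

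The other members of this group did not pass in either line. CDK1 differed by 0.20 in MUTZ-5 and 0.04 in MHH-CALL4, cyclin A2 (CCNA2) by -0.01 in both, and cyclin B2 (CCNB2) by 0.01 and 0.07. Cyclin B1 (CCNB1) read 9.66, 9.57 and 9.34 in MUTZ-5 with JQ1, against 9.62, 9.71 and 9.96 with DMSO, a difference of -0.24 ± 0.11 (limma adjusted p = 0.150) with 1 JQ1 value inside the DMSO range, and it differed by -0.07 in MHH-CALL4. CDC25B, a further CDK1 phosphatase, had the smallest spread within groups of all members (residual SD 0.042) and differed by 0.11 and -0.03. The 95% intervals of these 5 genes ran from -0.47 to 0.49 log2 in MUTZ-5 and from -0.31 to 0.32 in MHH-CALL4.

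Of the mitotic kinases and their partners, NEK2, which splits the centrosomes, rose in both lines. It read 10.11, 9.998 and 10.05 in MUTZ-5 with JQ1, against 9.79, 9.69 and 9.87 with DMSO, and 9.95, 10.03 and 9.98 in MHH-CALL4 with JQ1, against 9.76, 9.62 and 9.76 with DMSO. No JQ1 array overlapped the DMSO arrays of its line. The rise was 0.27 ± 0.07 log2 in each line (limma adjusted p = 0.0183 in MUTZ-5 and 0.0150 in MHH-CALL4). NEK2 did not pass in MUTZ-5 without MUTZ-5 DMSO 1, DMSO 2 or JQ1 1 (limma adjusted p = 0.0556 to 0.0790), nor in MHH-CALL4 without MHH-CALL4 DMSO 2 or JQ1 2 (0.0607 to 0.0660). With the extended probe sets its MUTZ-5 difference of 0.24 did not pass (limma adjusted p = 0.0633).

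The Aurora kinases were each called in 1 line and in opposite directions. Aurora A (AURKA), the kinase of centrosomes and spindle poles, read 9.26, 9.10 and 8.97 in MUTZ-5 with JQ1, against 9.38, 9.44 and 9.45 with DMSO, and fell by 0.31 ± 0.10 log2 (limma adjusted p = 0.0303). In MHH-CALL4 it read 9.53, 9.38 and 9.54 with JQ1, against 9.44, 9.75 and 9.54 with DMSO, and the values overlapped (-0.09 ± 0.10, limma adjusted p = 0.523). Aurora B (AURKB), the kinase of the chromosomal passenger complex, read 11.88, 11.82 and 11.95 in MHH-CALL4 with JQ1, against 11.65, 11.71 and 11.67 with DMSO, and rose by 0.21 ± 0.07 (limma adjusted p = 0.0480). In MUTZ-5 it read 11.83, 11.84 and 11.97 with JQ1, against 11.86, 11.71 and 11.87 with DMSO, and the groups overlapped (0.07 ± 0.07, limma adjusted p = 0.638). For neither kinase did the difference of the effects between lines pass (limma adjusted p = 0.645 and 0.730). Both calls were marginal: AURKA did not pass without MUTZ-5 DMSO 1, DMSO 2, DMSO 3, JQ1 2 or JQ1 3 (limma adjusted p = 0.0582 to 0.126), and AURKB did not pass without any 1 of the 6 MHH-CALL4 arrays, MUTZ-5 DMSO 1, JQ1 1 or JQ1 2 (0.0628 to 0.145).

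Survivin (BIRC5), a further passenger protein, and PLK1, the kinase of mitotic entry and spindle assembly, were not called. BIRC5 read 10.17, 10.17 and 10.18 in MHH-CALL4 with JQ1, against 10.39, 10.45 and 10.27 with DMSO, so the JQ1 arrays lay below the DMSO arrays (-0.19 ± 0.07, limma adjusted p = 0.0579), and it passed without MHH-CALL4 DMSO 3, MUTZ-5 DMSO 2 or MUTZ-5 DMSO 3 (0.0398 to 0.0467). In MUTZ-5 it differed by -0.03. PLK1 read 11.60, 11.61 and 11.65 in MUTZ-5 with JQ1, against 11.82, 11.77 and 11.88 with DMSO (-0.20 ± 0.07, limma adjusted p = 0.0738), and differed by -0.14 in MHH-CALL4.

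The spindle checkpoint holds back anaphase until every kinetochore is attached. BUB1, a checkpoint kinase at the kinetochore, read 11.67, 11.59 and 11.43 in MUTZ-5 with JQ1, against 11.21, 11.17 and 11.43 with DMSO, and 11.89, 11.81 and 11.67 in MHH-CALL4 with JQ1, against 11.63, 11.51 and 11.50 with DMSO. The lowest JQ1 array in MUTZ-5 only just exceeded the highest DMSO array, DMSO 3. BUB1 rose by 0.29 ± 0.09 log2 in MUTZ-5 (limma adjusted p = 0.0385), while the 0.24 ± 0.09 in MHH-CALL4 had an adjusted p of 0.0698 in limma. The MUTZ-5 call was lost without MUTZ-5 DMSO 1, DMSO 2, JQ1 1 or JQ1 2, or MHH-CALL4 DMSO 2, DMSO 3 or JQ1 2 (limma adjusted p = 0.050 to 0.152), and BUB1 passed in MHH-CALL4 without MHH-CALL4 JQ1 3 or MUTZ-5 DMSO 3 (0.0394 to 0.0440). Its partner BUB3 differed by 0.00 in MUTZ-5 and -0.15 in MHH-CALL4, MAD2L1, the inhibitor of the anaphase-promoting complex, by -0.12 and -0.05, and the kinase TTK, which starts checkpoint signalling, by 0.17 and 0.12. None of these 3 passed, and the spread of MAD2L1 and TTK within groups was wide (residual SD 0.251 and 0.217).

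At the centromere, CENPA, the histone H3 variant that marks it, rose in both lines. It read 11.06, 11.09 and 10.99 in MUTZ-5 with JQ1, against 10.61, 10.58 and 10.78 with DMSO, and 10.97, 10.98 and 10.86 in MHH-CALL4 with JQ1, against 10.68, 10.55 and 10.67 with DMSO. All JQ1 arrays lay above all DMSO arrays of their line. The rises were 0.39 ± 0.08 and 0.31 ± 0.08 log2 (limma adjusted p = 0.00218 and 0.00868), 1.31-fold and 1.24-fold, and both calls were kept when any single array was left out. With the extended probe sets of the same arrays CENPA did not pass (differences of 0.32 and 0.26 log2, limma adjusted p = 0.0575 and 0.102).

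The other members of this group were not called. CENPE, the kinesin that moves chromosomes to the spindle's middle, read 10.12, 9.96 and 9.504 in MUTZ-5 with JQ1, against 9.36, 9.501 and 9.80 with DMSO, and 10.08, 9.88 and 9.39 in MHH-CALL4 with JQ1, against 9.52, 9.33 and 9.29 with DMSO. In each line JQ1 array 3 lay inside the DMSO range and the other two JQ1 arrays above it. The differences of 0.31 ± 0.18 and 0.40 ± 0.18 did not pass (limma adjusted p = 0.302 and 0.120), and without MHH-CALL4 JQ1 3 that line's difference was 0.60 with an adjusted p of 0.0182 in limma. CENPF, a large kinetochore protein, differed by -0.04 in both lines, and TOP2A, the topoisomerase that untangles sister chromatids, by -0.002 in MUTZ-5 and -0.14 in MHH-CALL4.

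Among the spindle motors and microtubule proteins, PRC1, which bundles the antiparallel microtubules of the central spindle, fell in both lines. It read 10.58, 10.47 and 10.44 in MUTZ-5 with JQ1, against 10.86, 10.74 and 10.92 with DMSO. It read 10.67, 10.56 and 10.55 in MHH-CALL4 with JQ1, against 10.95, 11.12 and 10.99 with DMSO. The 6 JQ1 values lay below the 6 DMSO values of both lines together. PRC1 fell by 0.34 ± 0.08 and 0.42 ± 0.08 log2 (limma adjusted p = 0.00603 and 0.00116), and stayed called under all 22 alternatives in each line.

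DLGAP5, which stabilises kinetochore microtubules, read 10.98, 10.86 and 10.74 in MUTZ-5 with JQ1, against 10.48, 10.56 and 10.70 with DMSO, and 10.99, 10.93 and 10.88 in MHH-CALL4 with JQ1, against 10.66, 10.86 and 10.70 with DMSO. The JQ1 arrays lay above the DMSO arrays in both lines by a narrow margin. It rose by 0.28 ± 0.09 in MUTZ-5 (limma adjusted p = 0.0338) and differed by 0.20 ± 0.09 in MHH-CALL4 (limma adjusted p = 0.113), and the MUTZ-5 call was lost without MUTZ-5 DMSO 1, DMSO 2, JQ1 1 or JQ1 2 (0.0823 to 0.149). KIF11, the motor that pushes spindle poles apart, differed by 0.12 and 0.05, KIF2C, a microtubule-shortening kinesin, by 0.25 and 0.11, and TPX2, the activator of Aurora A at the spindle, by -0.07 and -0.12 in MUTZ-5 and MHH-CALL4. NUSAP1, a microtubule binder, read 12.44, 12.37 and 12.38 in MUTZ-5 with JQ1, against 12.19, 12.25 and 12.28 with DMSO (0.16 ± 0.07, limma adjusted p = 0.121), without overlap, and differed by 0.06 in MHH-CALL4. HMMR, a spindle and hyaluronan-binding protein, had the widest spread (residual SD 0.303), with JQ1 values of 9.98, 9.82 and 9.35 in MUTZ-5 and 10.55, 10.30 and 9.71 in MHH-CALL4, and differed by -0.03 and 0.04. None of these 5 was called in either line, though KIF2C passed in MUTZ-5 without MUTZ-5 DMSO 3 (0.33, limma adjusted p = 0.0403).

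The 3 members that act at anaphase onset moved apart. PTTG1 is securin, the inhibitor of separase, CDC20 activates the anaphase-promoting complex, and UBE2C is the ubiquitin-conjugating enzyme of that complex. PTTG1 read 12.66, 12.65 and 12.64 in MUTZ-5 with JQ1, against 12.23, 12.08 and 12.29 with DMSO, and 12.73, 12.54 and 12.48 in MHH-CALL4 with JQ1, against 12.16, 12.18 and 12.09 with DMSO. The 6 JQ1 values lay above the 6 DMSO values of both lines together. Securin rose by 0.45 ± 0.08 and 0.44 ± 0.08 log2 (limma adjusted p = 0.00127 and 0.00115), 1.36-fold in each line, and stayed called under all 22 alternatives. PTTG1 has near copies in the genome, and probes shared with them would read more than 1 gene.

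UBE2C read 8.83, 8.77 and 8.79 in MUTZ-5 with JQ1, against 9.25, 9.09 and 9.28 with DMSO. It read 9.81, 9.86 and 9.86 in MHH-CALL4 with JQ1, against 10.09, 10.13 and 10.11 with DMSO. The JQ1 arrays were below the DMSO arrays of the same line, and all MUTZ-5 arrays were below all MHH-CALL4 arrays. UBE2C fell by 0.41 ± 0.07 and 0.27 ± 0.07 log2 (limma adjusted p = 0.000715 and 0.0102) and stayed called under all 22 alternatives. CDC20 read 12.90, 12.87 and 12.83 in MHH-CALL4 with JQ1, against 12.68, 12.60 and 12.68 with DMSO, and rose by 0.21 ± 0.07 (limma adjusted p = 0.0393). In MUTZ-5 it read 12.45, 12.48 and 12.62 with JQ1, against 12.46, 12.51 and 12.59 with DMSO, and the groups overlapped (-0.01 ± 0.07, limma adjusted p = 0.970). The MHH-CALL4 call was lost without any 1 of the 6 MHH-CALL4 arrays, MUTZ-5 DMSO 1 or MUTZ-5 JQ1 2 (limma adjusted p = 0.0527 to 0.128).

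Of the cytokinesis genes, ANLN encodes anillin, the scaffold of the contractile ring, and ECT2 the exchange factor that activates RhoA there. ANLN read 11.16, 11.16 and 10.87 in MUTZ-5 with JQ1, against 10.49, 10.41 and 10.82 with DMSO, and 11.49, 11.39 and 11.10 in MHH-CALL4 with JQ1, against 11.11, 10.98 and 10.95 with DMSO. JQ1 array 3 of MHH-CALL4 lay inside the DMSO range, and the other JQ1 arrays lay above the DMSO arrays of their line. ANLN rose by 0.49 ± 0.13 in MUTZ-5 (limma adjusted p = 0.0122) and differed by 0.32 ± 0.13 in MHH-CALL4 (limma adjusted p = 0.0788). The MUTZ-5 call was lost without MUTZ-5 DMSO 1, DMSO 2, JQ1 1 or JQ1 2 (0.0510 to 0.0582), and ANLN passed in MHH-CALL4 without MHH-CALL4 JQ1 3 or MUTZ-5 DMSO 3 (0.0239 to 0.0415). ECT2 read 9.48, 9.35 and 8.95 in MUTZ-5 with JQ1, against 8.85, 8.79 and 9.19 with DMSO, differed by 0.32 ± 0.16 there and by 0.21 ± 0.16 in MHH-CALL4, and was called in neither (limma adjusted p = 0.200 and 0.363), but passed in MUTZ-5 without MUTZ-5 JQ1 3 (0.47, limma adjusted p = 0.0473).

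**Figure D2:**
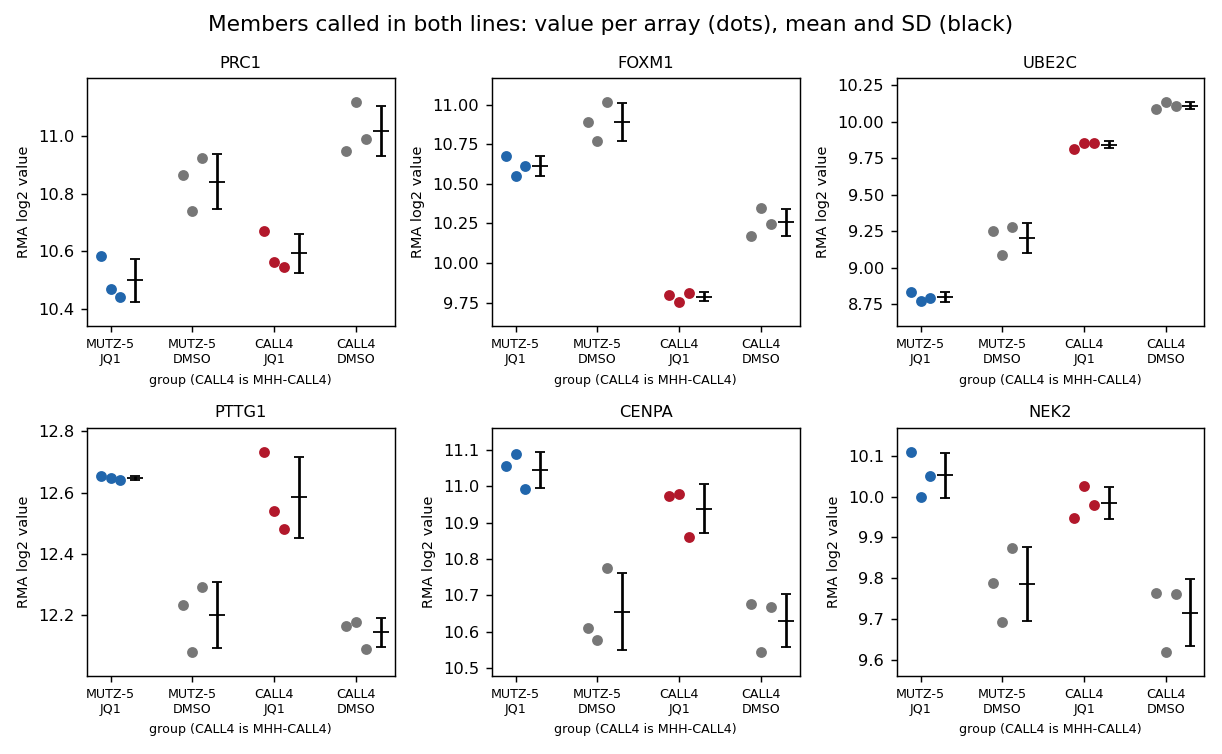
RMA log2 values of the 6 members called in both lines, 1 dot per array (3 per group), with the group mean and SD in black beside the dots. PRC1, FOXM1 and UBE2C are lower and PTTG1, CENPA and NEK2 higher with JQ1 than with DMSO in each line, with no overlap between the arrays of a line; each panel has its own axis.

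The 2 lines share no arrays, but their same-numbered JQ1 arrays deviated from their group means in a like way (correlations of 0.23, 0.20 and 0.47 across all genes), so their JQ1 effects may not be fully independent. Of the 32 members 6 were called in both lines, all in the same direction, with 3 higher (PTTG1, CENPA and NEK2) and 3 lower (FOXM1, PRC1 and UBE2C). A further 7 were called in 1 line only, 19 in neither and 0 in opposite directions. Among all 14232 genes 817 were higher in both, 1507 lower in both and 21 opposite, while 2505 were called in 1 line only and 9382 in neither. The shares of members called in both lines, in 1 line and in neither were near those of all genes. The effect had the same sign in both lines for 28 members (87.5%), against 74.5% of all genes. Across members the effects in the lines correlated with r = 0.843 and rho = 0.858, against r = 0.767 and rho = 0.689 across all genes. The genes are not independent of each other, and their values share arrays, so these correlations are descriptions.

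**Figure D3:**
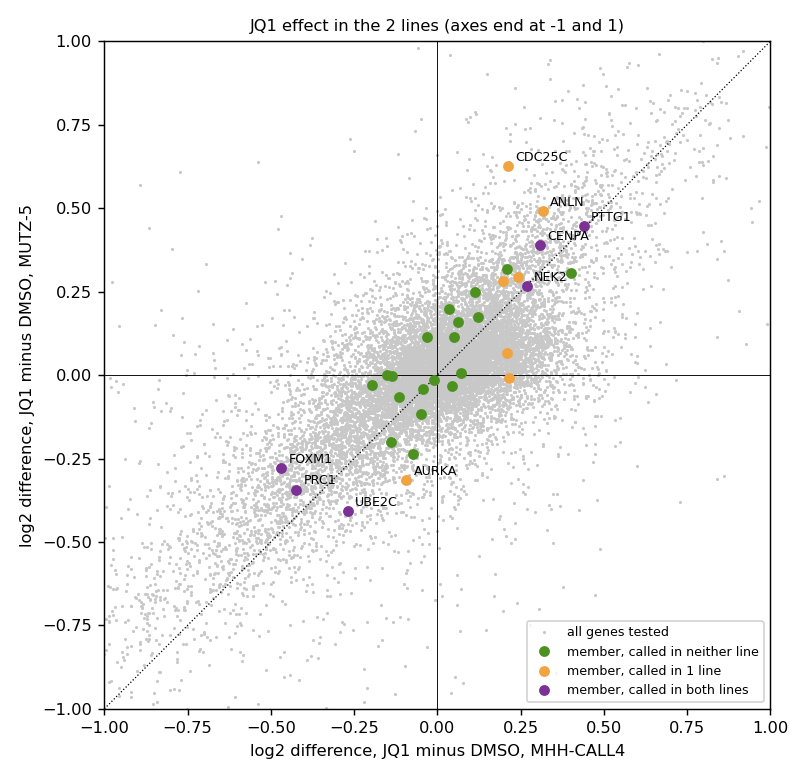
JQ1 minus DMSO (log2) in MHH-CALL4 (horizontal axis) and MUTZ-5 (vertical axis) for all genes (grey) and the 32 members (coloured by the number of lines in which they were called); 378 other genes lie outside the axes, which end at -1 and 1. The members called in both lines sit in the upper right and lower left, and CDC25C lies farthest above the dotted line of equal effects.

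Whether JQ1 acted differently in the lines was tested as the difference of the effects, MUTZ-5 minus MHH-CALL4. Of 32 members 0 were called, against 1.53% of all genes, of which 0.949% were higher and 0.583% lower (limma, adjusted p under 0.05), and 2 had an unadjusted p under 0.05, against 10.5% of all genes. These were CDC25C, with 0.63 in MUTZ-5 and 0.21 in MHH-CALL4, a difference of 0.41 (95% interval 0.15 to 0.67, limma adjusted p = 0.139), and CDC20, with -0.01 and 0.21, a difference of -0.22 (-0.44 to 0.00, limma adjusted p = 0.467). Without MUTZ-5 DMSO 3 the CDC25C difference was 0.48 and passed (limma adjusted p = 0.0439), and no other array left out alone gave a call. The 95% intervals of the other members reached from -0.69 to 0.59, so differences between lines of that size are within these data's error.

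A separate comparison set the untreated state of the lines side by side. Under DMSO, 1 member was higher in MUTZ-5 than in MHH-CALL4, 6 were lower and 25 did not pass, in all 21.9% of members against 23.4% of all genes (11.9% higher and 11.5% lower). An unadjusted p under 0.05 was reached by 12 members, and by 33.9% of all genes. The members' median was -0.14 log2, against 0.03 over all genes. In 12 members the 3 MUTZ-5 arrays all lay below the 3 MHH-CALL4 arrays, which held for 16.1% of all genes, and in 3 they lay above, which held for 20.0% (36.2% in either direction). FOXM1 was the member that was higher. Its DMSO arrays read 10.89, 10.77 and 11.01 in MUTZ-5, against 10.17, 10.35 and 10.25 in MHH-CALL4, a difference of 0.64 ± 0.08 log2 or 1.55-fold (limma adjusted p = 3.32e-05).

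UBE2C had the largest line difference on the list. Its DMSO arrays read 9.25, 9.09 and 9.28 in MUTZ-5, against 10.09, 10.13 and 10.11 in MHH-CALL4, and it was 1.87-fold lower in MUTZ-5, a difference of -0.91 ± 0.07 log2 (limma adjusted p = 2.73e-07). BUB3 read 11.89, 11.84 and 12.03 in MUTZ-5, against 12.19, 12.39 and 12.27 in MHH-CALL4 (-0.36 ± 0.08, limma adjusted p = 0.00333). These 3 calls were kept under all 22 alternatives. ANLN (-0.44), BUB1 (-0.28), TOP2A (-0.27) and PLK1 (-0.23) were also lower in MUTZ-5 (limma adjusted p = 0.0215, 0.0490, 0.0351 and 0.0366). Each of these 4 lost its call without 1 or more single arrays, ANLN without MHH-CALL4 DMSO 1 or 2 or MUTZ-5 DMSO 1 or 2 (limma adjusted p = 0.0526 to 0.0980), TOP2A without 6 of the 12 arrays (0.0511 to 0.150), PLK1 without 7 (0.0524 to 0.147) and BUB1 without 8 (0.0530 to 0.162). MHH-CALL4 DMSO 2 and MUTZ-5 DMSO 1 and 2 were among those arrays for all 4 genes. Without MUTZ-5 DMSO 3 alone, BIRC5 (-0.22), CCNB1 (-0.31) and CENPF (-0.35) were also lower in MUTZ-5 (limma adjusted p = 0.0484, 0.0487 and 0.0421), and without MHH-CALL4 DMSO 2 or MUTZ-5 JQ1 3, CCNB2 was higher there (0.0370 to 0.0405).

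**Figure D4:**
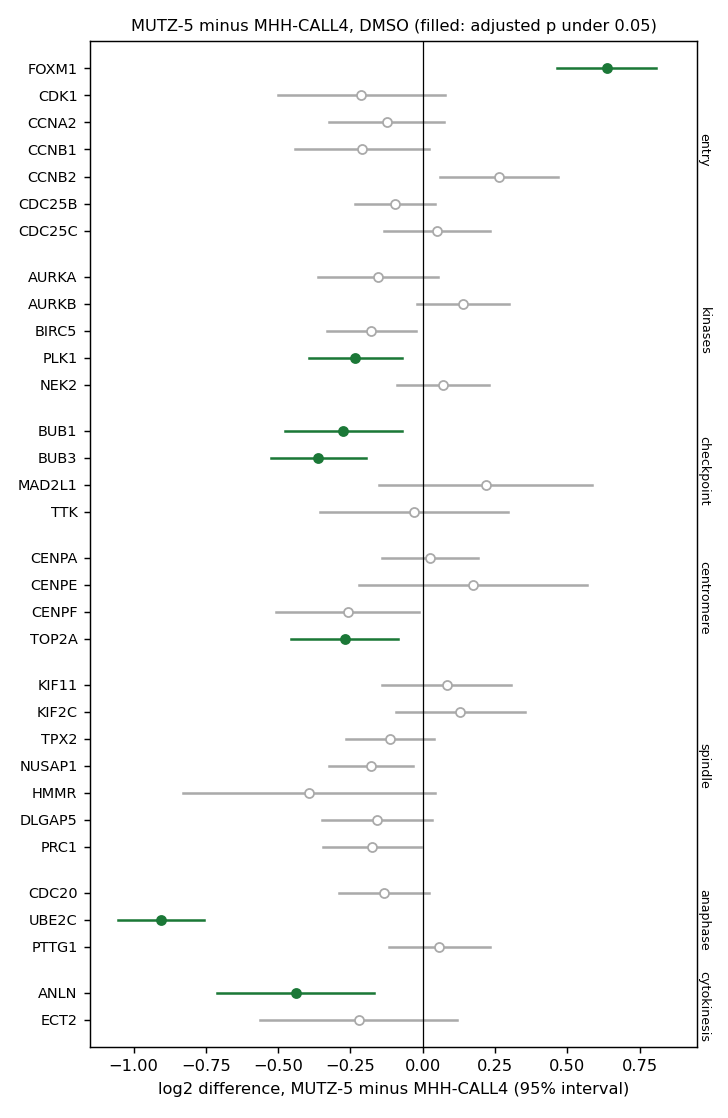
Log2 difference of each of the 32 members between the lines under DMSO, MUTZ-5 minus MHH-CALL4, with 95% intervals (3 arrays per group). Filled points passed an adjusted p of 0.05; FOXM1 lies to the right of 0, and UBE2C lies farthest to the left.

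The members also moved together from array to array within a group. On MUTZ-5 DMSO array 3 all 32 members lay above the mean of their group (median deviation 0.11 log2, against 0.05 over all genes). On MUTZ-5 DMSO arrays 1 and 2, 26 members each lay below it (median deviations -0.05 and -0.08, against 0.0002 and -0.05 over all genes). On MHH-CALL4 DMSO array 3, 27 members lay below the group mean (median deviation -0.04, against -0.01 over all genes). On JQ1 array 1, 29 members in MUTZ-5 and 26 in MHH-CALL4 lay above their group mean (median 0.10 and 0.07), and on JQ1 array 3, 28 and 25 lay below it (median -0.12 and -0.05), where the medians of all genes lay between -0.001 and 0.021. The 5 members with the widest spread within groups had this order in both lines. HMMR deviated by 0.27, 0.10 and -0.37 on the MUTZ-5 JQ1 arrays 1, 2 and 3 and by 0.36, 0.12 and -0.48 on those of MHH-CALL4. CENPE, MAD2L1, ECT2 and TTK, with residual SDs of 0.270, 0.251, 0.230 and 0.217, were highest on JQ1 array 1 and lowest on JQ1 array 3 in both lines. A deviation sums to 0 over the 3 arrays of a group, so the arrays of a group are not independent in these counts. What sets these arrays apart was not tested, and the labels give no culture, cell cycle or RNA quality measure.

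**Figure D5:**
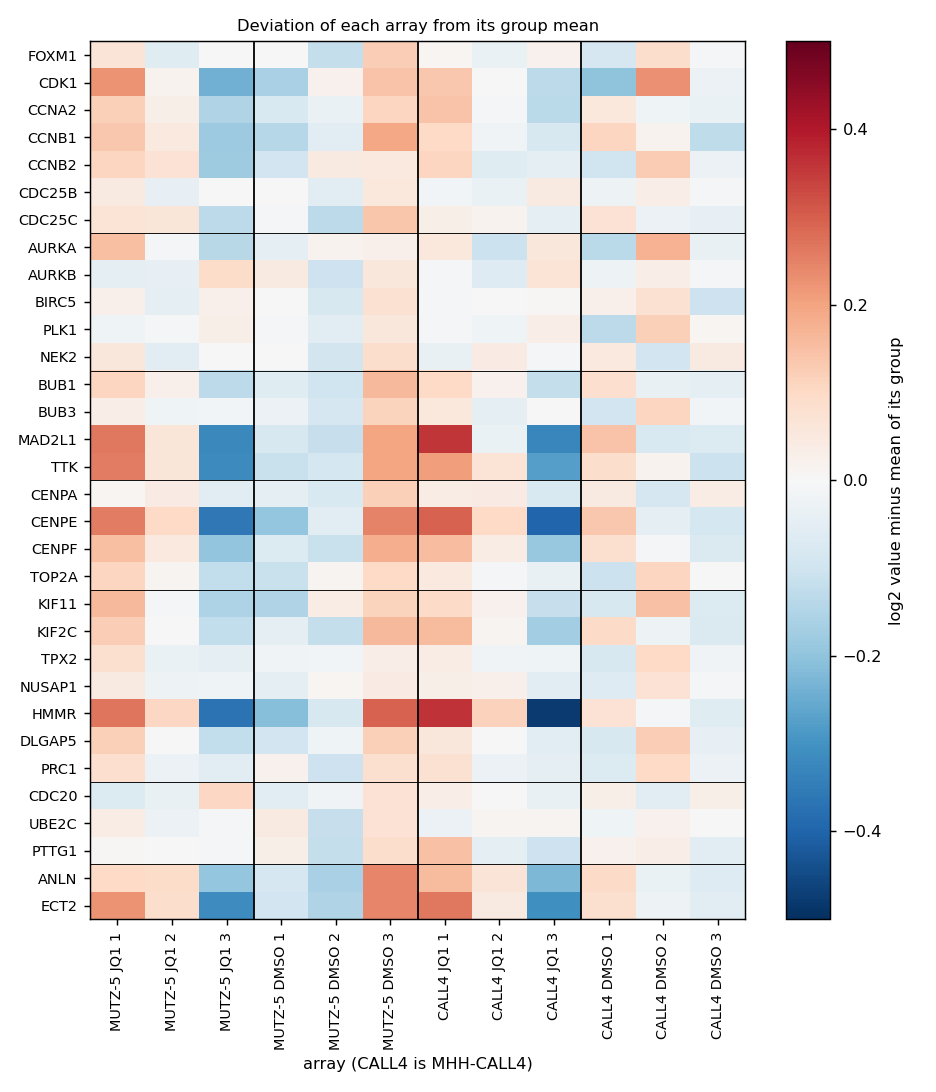
Log2 value of each member minus the mean of its group, for 12 arrays in columns (CALL4 is MHH-CALL4) and 32 members in rows grouped by role; red is above and blue below the group mean. The column of MUTZ-5 DMSO array 3 is above its group mean for all 32 members, and the columns of JQ1 array 1 and JQ1 array 3 differ in colour in both lines.

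Other genes of mitosis and its control were described from lists of 156 genes, of which 109 were measured. In MUTZ-5, 14 rose and 9 fell (21.1% called, median 0.02), and in MHH-CALL4, 8 rose and 17 fell (22.9% called, median -0.07), both near or below the shares of 22.0% and 28.5% over all genes. These lists were not set against brighter genes alone. For the difference of the JQ1 effects 0 of the 109 were called. Only up to 3 called genes per list, direction and line are named, so a gene named for 1 line may also be called in the other. At the kinetochore 27 were measured, with 5 higher and 2 lower in MUTZ-5 (25.9% called) and 2 higher and 6 lower in MHH-CALL4 (29.6%). TRIP13, the ATPase that recycles MAD2, fell by 0.68 log2 in MUTZ-5 and by 0.75 in MHH-CALL4, and KNTC1, a subunit of the complex that brings dynein to kinetochores, fell by 0.35 and 0.47. KNL1, the scaffold that BUB1 and BUB3 bind, rose by 0.49 and 0.36, and SGO2, a shugoshin that protects centromeric cohesion, rose by 0.34 and 0.40. CENPI, an inner kinetochore protein, rose in MUTZ-5 (0.40), and ZWINT fell in MHH-CALL4 (-0.36).

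Among 19 further spindle proteins, 5 were higher and 0 lower in MUTZ-5, and 4 higher and 1 lower in MHH-CALL4. That is 26.3% called in each line, against 22.0% of all genes in MUTZ-5 (9.06% higher and 13.0% lower) and 28.5% in MHH-CALL4 (11.0% higher and 17.5% lower). The kinesin KIF18A rose by 0.33 and 0.45 and the spindle protein CKAP2 by 0.34 and 0.36, ASPM rose in MUTZ-5 (0.44), and in MHH-CALL4 TROAP rose (0.36) and the kinesin KIF22 fell (-0.29). Of 11 further kinases and partners, CDK2 rose by 0.32 and 0.28 and the phosphatase CDC25A fell by 0.32 in each line. WEE1, the kinase that restrains CDK1, fell in MHH-CALL4 (-0.31). The called share of these kinases and partners was 18.2% in MUTZ-5 and 27.3% in MHH-CALL4, below the 22.0% and 28.5% of all genes. Of 12 anaphase-promoting complex genes only ANAPC1, its largest subunit, was called (8.33% in each line), and it fell by 0.52 and 0.60. Of 15 condensin and cohesin genes, NCAPH rose in MUTZ-5 (0.29) and SMC2 fell in MHH-CALL4 (-0.36), 6.67% in each line. Both lists were called less often than all genes (22.0% in MUTZ-5 and 28.5% in MHH-CALL4). Of 7 further cytokinesis genes, CEP55 rose (0.27) and SEPTIN9 fell (-0.23) in MUTZ-5 (28.6% called, against 22.0% of all genes). In MHH-CALL4 0 were called, against 28.5% of all genes. There 0 also had an unadjusted p under 0.05 in limma, against 38.8% of all genes.

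The regulators of cell cycle transcription included larger falls. Of 19 measured, 2 rose and 4 fell in MUTZ-5 (31.6% called, against 22.0% of all genes) and 1 rose and 6 fell in MHH-CALL4 (36.8%, against 28.5%). E2F5, a repressor E2F, fell by 0.82 and 0.89 log2 and LIN9, a core subunit of the MuvB complex, by 0.60 and 0.63, while FOXO1 rose by 0.36 and 0.43. E2F7 rose (0.42) and E2F4 fell (-0.26) in MUTZ-5, and E2F6 fell in MHH-CALL4 (-0.54). For comparison, of 42 DNA replication genes 3 rose and 6 fell in MUTZ-5 (21.4% called, against 22.0% of all genes; median -0.03), and 1 rose and 15 fell in MHH-CALL4 (38.1%, against 28.5%; median -0.15). With dim genes left out, 42.8% of the genes kept were called in MUTZ-5 and 47.2% in MHH-CALL4. The regulators and the replication genes were not counted against these brighter genes, so their shares above are not shown to be raised. MCM2, a subunit of the replicative helicase, fell by 0.38 and 0.68, POLE2 by 0.47 and 0.61, and the thymidine kinase TK1 rose by 0.41 and 0.52. MCM5, a further helicase subunit, fell in MHH-CALL4 (-0.60). In MUTZ-5 the polymerase subunit POLD2 fell (-0.58), and the replication proteins GINS4 (0.41) and POLE (0.29) rose. For the difference of the JQ1 effects 0 of the 42 replication genes were called, so no gene named for 1 line is shown to be specific to it.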

How the data were processed

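RNA of 12 samples was hybridised to Affymetrix exon arrays. The authors deposited RMA log2 values made in Affymetrix Expression Console, per the series' design text, at core and extended gene level (24 columns, 12 arrays); which background step, software version and genome build applied, and which arrays were normalized together, is not given in the sources used here. No detection call or background level was used, so signal over background is unknown. Precision is limited by how few arrays each group has. Of 22011 core transcript clusters 14432 have 1 gene symbol, 2408 several and 5171 none in the annotation supplied. For 197 genes with several such clusters (BIRC5 among the members) the one with the highest mean was taken. AURKA, MAD2L1 and CENPA each have a further cluster with several symbols, which was not used.

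The core values of 14232 genes on all 12 arrays entered 1 linear model with a mean for each group (limma 3.58.1, lmFit and eBayes, under R 4.3.3). Tests were two-sided, Benjamini-Hochberg adjusted, called at 0.05, with 95% intervals from the moderated fit. No filter was applied. The fit was also run on simulated arrays whose noise was drawn independently for each gene and array. Deviations shared by many genes on an array, as seen here, were absent from that run, so it could not test the fit under them. The members, lists, naming rule and alternatives were chosen with earlier results of these data known, so nothing here is independent support for them. Named are all members, and of each other list up to 3 called genes with the largest difference in each direction and line. Alternatives were median centring, cyclic loess, extended values, replicate number as a block, fits on the compared arrays, eBayes trend and robust, array weights, genes at or above the median, the mean of all clusters, and arrays left out singly or 2 together. Not all of these are separate checks. Among the members the mean of all clusters alters the values of BIRC5 only. An array left out from outside a comparison leaves its differences unchanged and alters only the spread and the adjustment.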

Additional observations from a re-analysis of the deposited data

How the results depend on the processing

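Of the members called, 4 of 11 in MUTZ-5 (CDC25C, PRC1, UBE2C and PTTG1), 4 of 8 in MHH-CALL4 (FOXM1, PRC1, UBE2C and PTTG1) and 3 of 7 between the lines under DMSO (FOXM1, UBE2C and BUB3) passed under every alternative that kept them; CDC25C is removed by the filter on dim genes. The count of members higher in MUTZ-5 (7) was 4 with extended values, 4 with only the arrays of the comparison and 18 with array weights, and 3 to 8 without single arrays; the count lower (4) was 2 to 4 without single arrays and 2 without MUTZ-5 DMSO 3 and MHH-CALL4 JQ1 3 together. The count higher in MHH-CALL4 (5) was 9 with median centring, 9 with cyclic loess, 3 with extended values, 3 with only the arrays of the comparison, 13 with array weights, 8 without those arrays together and 2 to 8 without single arrays; the count lower (3) was 5 with array weights. For the difference of the JQ1 effects (0 and 0), array weights gave 4 higher and 3 lower, and single arrays left out gave 0 to 1 higher. Between lines under DMSO the count higher (1) was 2 with cyclic loess, extended values, eBayes trend and robust or the filter on dim genes, 5 with array weights and 1 to 2 without single arrays; the count lower (6) was 20 with array weights, 11 without the arrays together and 2 to 9 without single arrays. With array weights the MUTZ-5 median was 0.14, against 0.04, and the signs of TOP2A (0.12) and HMMR (0.27) in MUTZ-5 turned and passed; over all genes these weights called 65.6% in MUTZ-5, 46.8% in MHH-CALL4, 24.8% for the difference of the effects and 61.3% between lines, against 22.0%, 28.5%, 1.53% and 23.4% without them, and their estimation did not converge, giving MUTZ-5 DMSO 1 a weight of 17.1 and the other arrays 0.18 to 4.71. The share of all genes called higher was 8.53% in MUTZ-5 and 11.0% in MHH-CALL4 with extended values, 7.12% and 10.7% with only the arrays of the comparison, and 12.4% and 15.2% with median centring, against 9.06% and 11.0%. The cause of these shifts was not tested. The differences that were not called changed sign in 138 of 2209 combinations of member, comparison and alternative, and no direction is read from them.

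The replicate numbers were not taken to pair the samples, since no label says that they mark a shared batch. Same-numbered JQ1 and DMSO arrays had residual correlations of -0.17, -0.21 and -0.44 in MUTZ-5 and 0.30, 0.07 and 0.23 in MHH-CALL4. Same-numbered JQ1 arrays of the 2 lines had 0.23, 0.20 and 0.47, all above 0, but not every array was closest to its own number, and same-numbered DMSO arrays had -0.20, -0.09 and -0.26. With the replicate block 5 members were higher and 3 lower in MUTZ-5 (7.93% and 11.8% of all genes), and 3 and 3 in MHH-CALL4 (9.68% and 16.2%). Between lines under DMSO 1 was higher, FOXM1, and 3 were lower (10.8% and 10.2% of all genes). For the difference of the JQ1 effects 0 were called (1.24% of all genes). Signal over background, unknown here, and 3 arrays per group limit what small differences can be seen.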
